A study of Mus musculus with 12 samples.

Results

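The response of BW5147 cells to interleukin-9 (IL-9) in the presence of dexamethasone (Dex), a synthetic glucocorticoid, was read from 4 of the 12 arrays of the study. BW5147 is an established mouse thymic T lymphoma line. The 4 arrays hold 2 samples given Dex at 100 ng/ml and 2 given the same Dex together with IL-9 at 100 U/ml, all for 8 h, so that Dex is common to both groups and IL-9 is what separates them. The arrays were assigned by their labels and by no measured value. The other 8 arrays hold unstimulated cells, cells with IL-9 alone, cells with the chemokine CCL1 alone at 100 U/ml, and cells with Dex and CCL1, with 2 arrays each. Arrays of a group are numbered 1 and 2, and nothing in the labels ties the numbers to separate cultures. The p-values therefore measure the spread between these arrays of 1 cell line, which may be technical. With 2 arrays against 2, an exact permutation test cannot go below p = 0.333, and the tests below rest on a spread pooled over all groups.

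IL-9 is a T cell cytokine whose receptor pairs the chain Il9r with the common gamma chain and signals through the kinases Jak1 and Jak3. These phosphorylate STAT transcription factors, which induce their own feedback inhibitors of the SOCS family. Glucocorticoids act through the receptor Nr3c1 and kill many thymic lymphoma cells, and IL-9 is known to protect such cells from that death. The question of the comparison is which transcripts IL-9 altered while Dex was present.

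Some T cell transcripts were clearly measured in the 4 arrays, among them Thy1 with signals from 915 to 1520 and Cd3g from 531 to 661. Of 20 measured members of a T cell identity list 11 passed the filter on low signal. Of all 12393 genes on the array 7507 passed it, so this count does not set the list apart. Cd4, Cd8a, Cd2, Cd5 and Cd247 did not pass it. Of the marker lists of other cell types, the 7 B cell markers summed to a signal of 15.6 to 35 over the 11 arrays of the main table and the 4 erythroid markers to 3.74 to 23.6, with 0 members past the filter. Of 10 myeloid markers 4 passed it, at sums of 42.5 to 71.7, and of 9 fibroblast and epithelial markers 2, at 14.2 to 62, against 6030 to 7830 for the T cell list. The array Dex 2 stood apart. Its mean correlation with the other arrays was 0.965, against 0.977 to 0.983 for the rest, and 74 of 7507 genes lay more than 1 log2 below all other arrays in it, against 0 or 1 in each of the others. The called genes and those whose value turns on it are therefore also given without it. Among the cells without Dex, the arrays labelled unstimulated 1 and IL-9 1 had levels of glucocorticoid receptor targets like those with Dex. Their centred mean log2 levels over 16 genes were 0.202 and 0.216, against 0.127 to 0.204 in the 4 arrays with Dex or Dex and IL-9. In unstimulated 2 and IL-9 2 they were -0.617 and -0.588. The 16 genes include Sgk1, whose signal was higher with IL-9 (below), which lifts the means of the arrays with IL-9. CCL1 1, also labelled as without Dex, was at 0.027, beside 0.016 and 0.03 in Dex+CCL1 1 and 2.

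IL-9 raised 3 genes in Dex-treated cells and lowered none past an adjusted p of 0.05 (limma, Benjamini-Hochberg over 13575 probe sets, 0.0221% of them called). An unadjusted p under 0.05 was reached by 774 probe sets, 372 up and 402 down, against 679 given by chance. Differences are in log2(signal + 16), a scale that understates the change of low signals, with standard errors (SE).

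Bcl3, an atypical IkB protein that works as a nuclear cofactor of NF-kB, read 10.5 and 2.61 on the Dex arrays (signals of arrays 1 and 2, here and below), and 143 and 114 on the Dex+IL-9 arrays. It was near the floor of the array without IL-9 and clearly measured with it, and the groups did not overlap. The ratio of mean signals was 19.6 and rests on a low denominator, and the difference was 2.70 (SE 0.22, adjusted p = 0.000461).

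Sgk1, the serum- and glucocorticoid-regulated kinase, had signals of 45.0 and 39.3 with Dex and of 311 and 241 with Dex and IL-9. The lower array with IL-9 was 2.08 log2 above the higher Dex array. The ratio of mean signals was 6.54, and the difference was 2.32 (SE 0.19, adjusted p = 0.000461). The unstimulated arrays read 33 and 47.1, on either side of the Dex arrays, the first on an array with glucocorticoid targets at the level of Dex.

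Gzma, whose product granzyme A is a serine protease of cytotoxic granules, had signals of 33.5 and 29.8 with Dex and of 151 and 120 with Dex and IL-9. The groups were apart by 1.46 log2 at their nearest arrays. The difference was 1.66 (SE 0.20, adjusted p = 0.0124), a ratio of mean signals of 4.28. Without the array Dex 2, Bcl3 and Sgk1 passed (adjusted p = 0.00208 for both) and Gzma did not (1.61, adjusted p = 0.0824), so that 2 probe sets or 0.0147% were called. Gzma also missed the threshold without Dex+IL-9 1 (adjusted p = 0.457), without Dex+IL-9 2 (adjusted p = 0.102) and in a fit of the 6 Dex arrays alone (adjusted p = 0.0604).

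**Figure D1:**
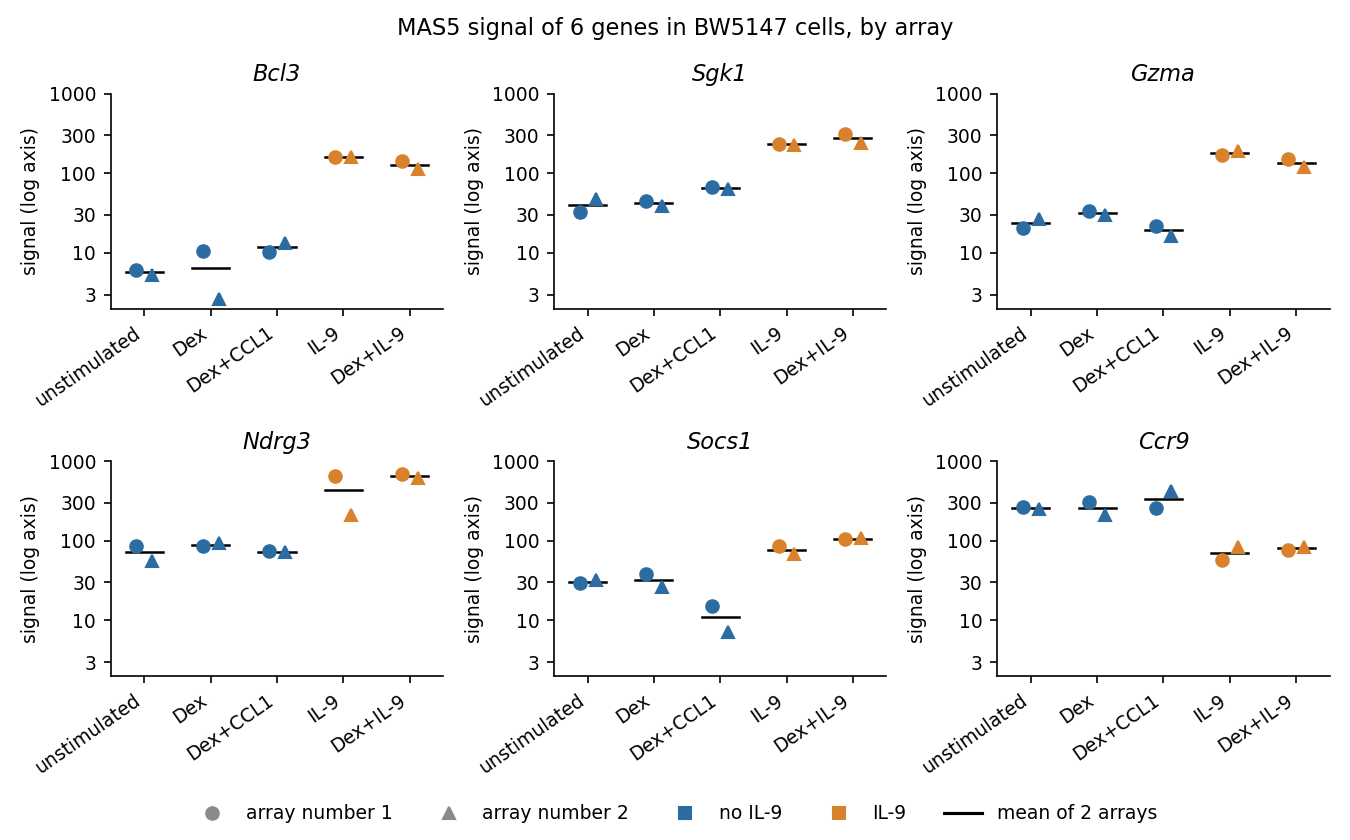
Signals (log axis, MAS5 intensity units) of Bcl3, Sgk1, Gzma, Ndrg3, Socs1 and Ccr9 in 10 arrays of 5 groups; circles are arrays numbered 1, triangles arrays numbered 2, bars the means of 2 arrays, and orange marks groups with IL-9. In the first 5 genes both Dex+IL-9 arrays lie above both Dex arrays, and in Ccr9 they lie below.

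The promoters of Sgk1 are shown because this gene is a textbook glucocorticoid target that was called here for IL-9, with Dex in both groups. RefSeq windows of 300 bases around gene starts in GRCm38.p6 were searched on both strands for a STAT site, TTCNNNGAA, and a glucocorticoid receptor palindrome, GNACANNNTGTNC, which, as palindromes, read the same on both strands and do not overlap here. Of 20 genes looked up (those past the threshold, the markers and the widest gaps below) 18 had a window, and of these 1 gene, Sgk1, held a match to either. It has 6 windows at alternative starts, of which 1 held the STAT site and another the palindrome. Printed below are the 250 bases before those starts, 5′ to 3′, with the matches in capitals. The first is chr10:21881934-21882183 on the plus strand, with the STAT site starting 223 bases before the start, and the second chr10:21993640-21993889 on the plus strand, with the palindrome 188 bases before it.
Sgk1 window 1: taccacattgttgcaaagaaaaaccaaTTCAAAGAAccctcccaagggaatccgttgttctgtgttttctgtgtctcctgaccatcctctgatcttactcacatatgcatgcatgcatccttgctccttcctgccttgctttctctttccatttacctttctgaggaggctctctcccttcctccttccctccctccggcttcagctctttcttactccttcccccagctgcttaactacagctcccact
Sgk1 window 5: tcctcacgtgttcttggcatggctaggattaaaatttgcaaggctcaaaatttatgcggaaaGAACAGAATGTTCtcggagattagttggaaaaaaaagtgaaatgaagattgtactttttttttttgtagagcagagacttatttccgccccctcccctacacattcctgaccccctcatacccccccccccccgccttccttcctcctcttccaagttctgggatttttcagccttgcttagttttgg
Among all 32851 windows of this length, 8.3% held the STAT site and 0.475% the palindrome. Counted by gene, 2582 of 27025 held the STAT site and 145 the palindrome. With 6 windows, Sgk1 had more sequence in which to find a match than a gene with 1. A match is a description of letters and not a measured site of binding.

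Next in order of p came genes that did not pass. Ndrg3, a family member of the NDRG proteins that SGK kinases phosphorylate, had signals of 85.8 and 93.1 with Dex and of 694 and 616 with Dex and IL-9. The gap between the groups was 2.53 log2, wider than that of Bcl3 at 2.30. The difference of 2.67 (SE 0.38) had an adjusted p of 0.0541, and a second probe set gave 2.71 (adjusted p = 0.0593). In cells with IL-9 alone the arrays read 653 and 210, a spread that enters the pooled error of the fit. The higher of them is IL-9 1, the array with glucocorticoid receptor targets at the level of Dex. Ndrg3 passed in the 6 Dex arrays alone (adjusted p = 0.000918), without IL-9 1 (adjusted p = 0.00111) and without IL-9 2 (adjusted p = 0.00101). Without Dex 2 it was at 2.72 (adjusted p = 0.116).

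Socs1, a feedback inhibitor of JAK kinases, read 37.8 and 26.1 with Dex and 104 and 108 with Dex and IL-9. Both arrays with IL-9 were higher, and the difference was 1.36 (SE 0.22, adjusted p = 0.0959), or 1.18 without Dex 2 (adjusted p = 0.361). Arid5a, an RNA-binding protein that stabilises inflammatory transcripts, read 84.9 and 93.9 against 265 and 243 (1.36, SE 0.23, adjusted p = 0.126). Ptger4, the prostaglandin E2 receptor EP4, read 230 and 248 against 466 and 441 (0.88, adjusted p = 0.126). None of these groups overlapped.

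The lowest value on the other side was that of Ccr9, the chemokine receptor for CCL25 that thymocytes and gut-homing T cells carry. Its signals were 309 and 213 with Dex and 76.1 and 84.0 with Dex and IL-9, a ratio of mean signals of 0.307 and a difference of -1.51 (SE 0.25, adjusted p = 0.116). Its other probe sets were at -1.02 and -0.66, neither past the threshold. Without Dex 2 the difference was -1.76 (adjusted p = 0.0824).

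Genes whose groups were apart were then ranked by the gap between the nearest arrays. Of 7507 genes, 13.5% had both Dex+IL-9 arrays above both Dex arrays and 21.3% had both below, so non-overlap alone was common. A gap over 0.5 log2 was found upward in 30 genes (0.4%) and downward in 45 (0.599%). The 10 widest upward gaps belonged to Ndrg3, Bcl3, Sgk1, Gzma, Il10, Arid5a, Fam102a, Socs1, Gadd45g and Pdcd1. Il10, an anti-inflammatory cytokine, read 17.2 and 16.1 with Dex and 114 and 68.6 with Dex and IL-9. Its difference was 1.68 (SE 0.61, adjusted p = 0.838). With IL-9 alone it read 117 and 5.91, again a spread that enters the pooled error. The high array was again IL-9 1, and whether this is related to its glucocorticoid receptor targets was not tested. Pdcd1, the inhibitory receptor PD-1, read 21.2 and 10.4 against 88.8 and 55.4 (1.47, SE 0.40), and Fam102a 88.9 and 81.2 against 290 and 227 (1.43, SE 0.38). Both were also low in IL-9 2, at 23.3 and 81.3, against 95.2 and 263 in IL-9 1. Gadd45g, a stress sensor that cytokines induce, read 59.3 and 46.9 against 192 and 142 (1.40, SE 0.44). In unstimulated cells it read 43 and 198, the second above both Dex+IL-9 arrays. In the 6 Dex arrays alone the adjusted p was 0.126 for Il10, 0.334 for Pdcd1 and 0.109 for Fam102a, so none passed there either.

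The 10 widest downward gaps were those of Ccr9, Bbip1, Mxd4, Cttn, Lrig1, Dusp10, Inpp5k, Il6ra, Ralb and Adcyap1r1. Mxd4, a MAX partner that opposes MYC, read 65.7 and 84.3 with Dex and 23.2 and 26.2 with Dex and IL-9 (-1.15, SE 0.28, adjusted p = 0.663). Dusp10, a phosphatase of the stress kinases JNK and p38, read 114 and 98.0 against 40.8 and 48.5 (-1.01, SE 0.21). Lrig1, a negative regulator of growth factor receptors, read 106 and 116 against 41.7 and 53.0 (-1.01, SE 0.29). Il6ra, the receptor chain for interleukin-6, was low throughout, at 22 and 27.2 against 5.36 and 7.11 (-0.87, SE 0.21). The other 5 genes of this order had differences from -1.10 (Bbip1, of the ciliary BBSome) to -0.83 (Ralb, a small GTPase), and none passed the threshold. Other probe sets of 5 of these genes gave values nearer to 0: -0.18, 0.00 and -0.47 for Mxd4, -0.21 and -0.46 for Lrig1, 0.03 for Il6ra, -0.36 and -0.29 for Inpp5k, and -0.83 to -0.41 for Cttn.

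The genes of the pathway were read from lists, as counts and medians beside those of all 7507 genes, of which 3 or 0.04% were called, 44% were positive and the median difference was -0.03. Among 10 tested genes of the IL-9 receptor and its kinases, 0 were called and 5 were positive. Il9r itself was low in all 4 arrays, at 14.4 and 18.6 with Dex and 11.2 and 12.3 with IL-9 added (-0.22, SE 0.22). Jak3 read 28.2 and 29.2 against 59.7 and 45.7, a difference of 0.61 with an unadjusted p of 0.00945. Jak1 was level at 720 and 830 against 802 and 804.

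Of 6 STAT genes 0 were called and 3 were positive. Stat3, which is itself a target of STAT signalling, read 267 and 360 with Dex and 560 and 635 with Dex and IL-9 (0.91, SE 0.18, adjusted p = 0.369), without overlap. Stat5a (0.23), Stat2 (0.15), Stat4 (-0.01), Stat5b (-0.18) and Stat6 (-0.25) were not past the threshold. Of the 6 genes, 3 had both Dex+IL-9 arrays above both Dex arrays and 2 had both below, against 13.5% and 21.3% of all genes. Of 7 SOCS genes 0 were called and 6 were positive, with a median of 0.14. Socs1 stood at 1.36, and the rest were between -0.15 and 0.21. Cish and Socs2, which are targets of STAT5 in many T cells, were at 0.04 and 0.10.

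The list of cytokine and STAT target genes held 20 tested members, of which 2 were called (Bcl3 and Gzma), 17 were positive and 11 had both Dex+IL-9 arrays above both Dex arrays, as did 13.5% of all genes. Its median was 0.28. Against Dex 1 alone 19 were positive (median 0.34), and against Dex 2 alone 13 (median 0.30). Parts of the list were chosen with earlier results of these data known, so its direction is no independent evidence. Beyond the genes above, Id2, which blocks E protein transcription factors, read 54.4 and 49.4 against 145 and 110 (1.07, adjusted p = 0.126). Junb read 15.3 and 43.2 against 60.6 and 69.2 (0.91, SE 0.27), and Bcl6, a transcriptional repressor, 9.76 and 1.49 against 14.1 and 18.8 (0.61). The members known for growth and survival were near 0: Myc 0.04, Ccnd2 0.00, Pim1 0.00, Pim2 -0.14 and Bcl2l1 -0.10. Gzmb, Il2ra, Il4ra, Lif and Socs3 did not pass the filter on low signal and were not tested.

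**Figure D2:**
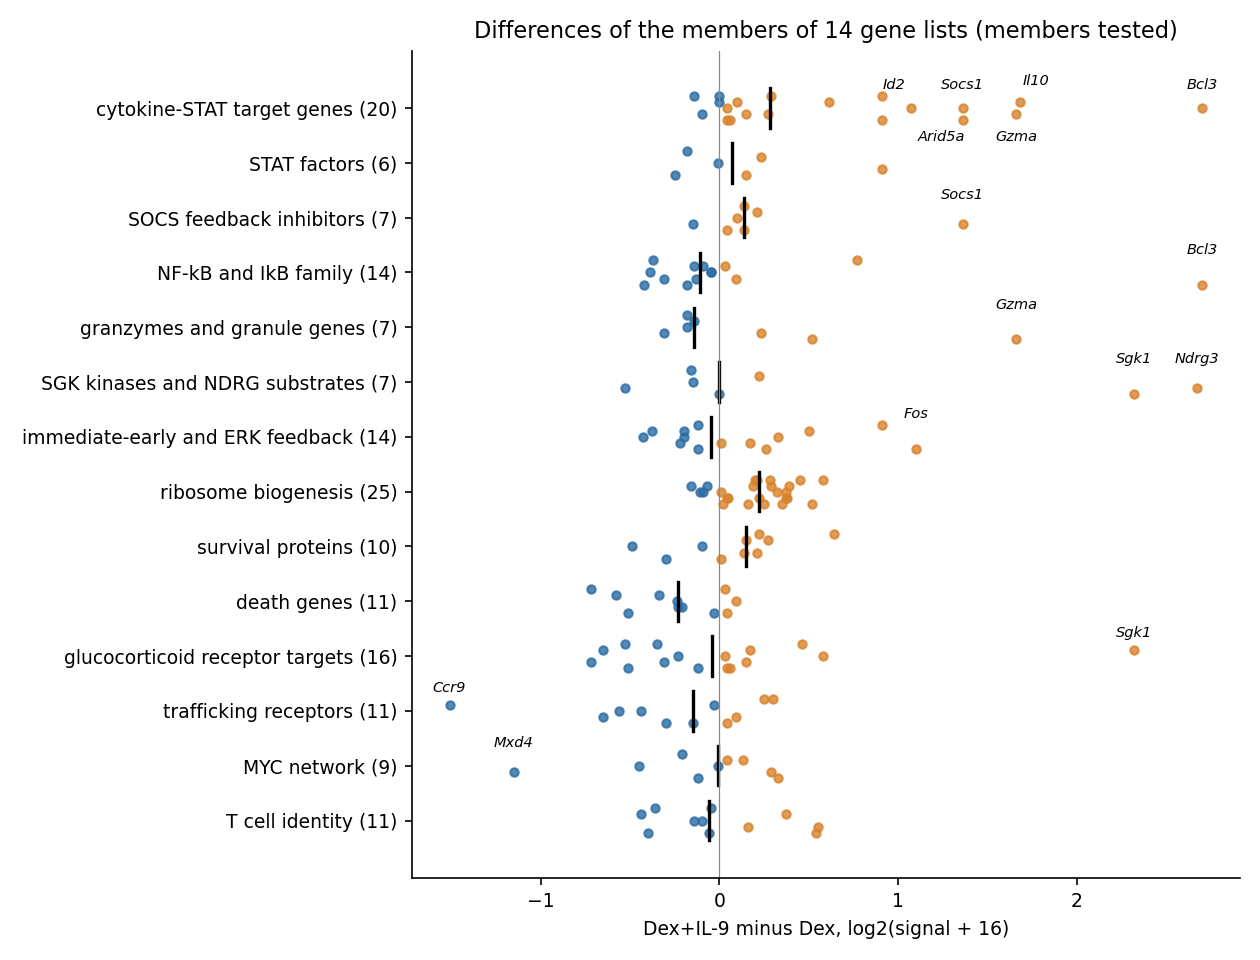
Difference of Dex+IL-9 minus Dex in log2(signal + 16) of each tested member of 14 lists, 1 point per gene, with the number tested in brackets and the list's median as a black bar. The highest points belong to a few genes such as Bcl3, Ndrg3, Sgk1 and Gzma, while most members of most lists lie near 0.

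In the NF-kB and IkB list 1 of 14 members was called, Bcl3, and 4 were positive, with a median of -0.11. Nfkbiz, another nuclear IkB protein, read 15.4 and 8.68 against 27.4 and 35.8 (0.77, SE 0.23, adjusted p = 0.838). The classical inhibitor Nfkbia read 743 and 896 against 600 and 715 (-0.31), and the subunits Rela (-0.13), Relb (-0.39), Rel (-0.18) and Nfkb2 (-0.42) were not past the threshold. Of 7 tested granule genes 1 was called, Gzma, and 3 were positive, with a median of -0.14. Prf1, the pore-forming protein perforin, stayed at or under 7.01 in the 4 arrays, Serpinb9, an inhibitor of granzyme B, was at 0.52, and 8 other granzymes did not pass the filter. In the list of SGK kinases and NDRG substrates Sgk1 was called and Ndrg3 was at 2.67, while Ndrg1 was at 0.00 and the activating kinase Pdpk1 at 0.22.

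Of 14 immediate-early and ERK feedback genes 0 were called and 7 were positive. Fos, a subunit of AP-1, read 4.67 and 10.6 against 38.7 and 30.3 (1.10, SE 0.28, adjusted p = 0.749), and with Junb it was among the genes without overlap. Dusp6, the feedback phosphatase of ERK, read 183 and 209 against 148 and 134 (-0.43, adjusted p = 0.838). In the MYC network 0 of 9 were called and 4 were positive, and Mxd4 was the lowest.

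Ribosome biogenesis genes were mostly positive without a call: 0 of 25 passed, 21 were positive and the median was 0.22. Against Dex 1 alone 17 were positive (median 0.21), and against Dex 2 alone 17 (median 0.13). Gnl3, the nucleolar protein nucleostemin, read 607 and 367 against 739 and 690 (0.58), Wdr43 365 and 252 against 420 and 424 (0.45) and Noc4l 151 and 197 against 242 and 215 (0.37). For Gnl3 and Wdr43 the array Dex 2 was the lower Dex array, and for Noc4l it was Dex 1. Of 18 cell cycle genes 0 were called and 10 were positive. Mki67 read 863 in Dex 1, 183 in Dex 2, and 720 and 749 with IL-9, so its difference of 0.84 rested on Dex 2 and was -0.23 without it.

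Of 11 genes of cell death 0 were called and 3 were positive, at a median of -0.23, and 6 had both Dex+IL-9 arrays below both Dex arrays, as did 21.3% of all genes. Bcl2l11, encoding the BH3 protein BIM that glucocorticoids induce in thymocytes, read 374 in Dex 1 and 673 in Dex 2, and 269 and 333 with IL-9. Both arrays with IL-9 were lower, the difference was -0.72 (adjusted p = 0.85), and it was -0.31 without Dex 2. Bbc3, the BH3 protein PUMA, read 21.2 and 40.1 against 12.7 and 16.5 (-0.58, unadjusted p = 0.0495), and Txnip 539 and 490 against 385 and 330 (-0.51). Of 10 survival genes 0 were called and 7 were positive, at a median of 0.15. Mcl1 read 432 and 525 against 528 and 631 (0.27), Bcl2l1 was at -0.10, and Cflar, an inhibitor of caspase-8, was lower at 24.7 and 22.6 against 16.7 and 8.47 (-0.49). Xiap was at 0.64, but it read 238 in Dex 1 and 81.3 in Dex 2, and the difference was -0.05 without Dex 2. In bulk RNA fewer cells with a transcript and less of it per cell cannot be told apart.

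In the list of glucocorticoid receptor targets 1 of 16 was called, Sgk1, 8 were positive and the median was -0.04. Nr3c1 read 314 and 118 with Dex and 214 and 245 with IL-9 added, within the spread of the Dex arrays. Fkbp5 (0.15), Dusp1 (-0.12) and Per1 (-0.23) were near 0. Mt1, a metallothionein, read 3470 and 3410 against 4610 and 4870 (0.46), and Tsc22d3, encoding the glucocorticoid-induced leucine zipper GILZ, 349 and 422 against 260 and 261 (-0.53, adjusted p = 0.889). Both pairs of groups were without overlap and not past the threshold.

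Among trafficking receptors 0 of 11 were called and 4 were positive, with a median of -0.15. Beside Ccr9, Cxcr4 read 368 and 491 against 286 and 247 (-0.65, unadjusted p = 0.00873) and Ccr8, the receptor of CCL1, 400 and 456 against 298 and 271 (-0.56, adjusted p = 0.866). Of 8 genes of the prostaglandin E and cAMP list 0 were called. Ptger4 was the highest, and Adcy7, an adenylate cyclase, read 297 and 398 against 246 and 231 (-0.50). In the T cell identity list 0 of 11 were called and 4 were positive: Zap70 read 237 and 363 against 463 and 406 (0.54), Cd3e 191 and 298 against 166 and 176 (-0.44), and Gata3 241 and 212 against 148 and 188 (-0.40).

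How far these values depend on the array Dex 2 was read by setting both Dex+IL-9 arrays against each Dex array. Against Dex 2 alone 669 probe sets or 4.93% were called, 630 of them up (4.64%) and 39 down (0.287%). The smallest p on the up side was that of Bcl3, and the next 4 belonged to genes that were lower in Dex 2 than in Dex 1 and in both Dex+IL-9 arrays. Esf1, a nucleolar protein, read 378 in Dex 1, 74.0 in Dex 2, and 359 and 449 with IL-9. Rif1, a telomere and replication timing factor, read 329, 44.0, 284 and 269 in the same order. Ube2v2 read 562, 96.6, 581 and 510, and Pola1, the catalytic subunit of DNA polymerase alpha, 223, 38.4, 229 and 217. Against Dex 1 alone these 4 genes were between -0.24 and 0.08, so their differences were there against Dex 2 and not against Dex 1. On the down side Prr13 read 267 and 394 with Dex and 158 and 213 with IL-9, and Psap, the precursor of lysosomal saposins, 534 and 661 against 401 and 397, with Dex 2 the higher Dex array in both. Bcl3 (2.44 against Dex 1 and 2.95 against Dex 2), Sgk1 (2.25 and 2.39), Gzma (1.61 and 1.72) and Ndrg3 (2.72 and 2.62) had like values against either array. Junb (1.37 and 0.45) and Bcl2l11 (-0.31 and -1.13) did not.

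**Figure D3:**
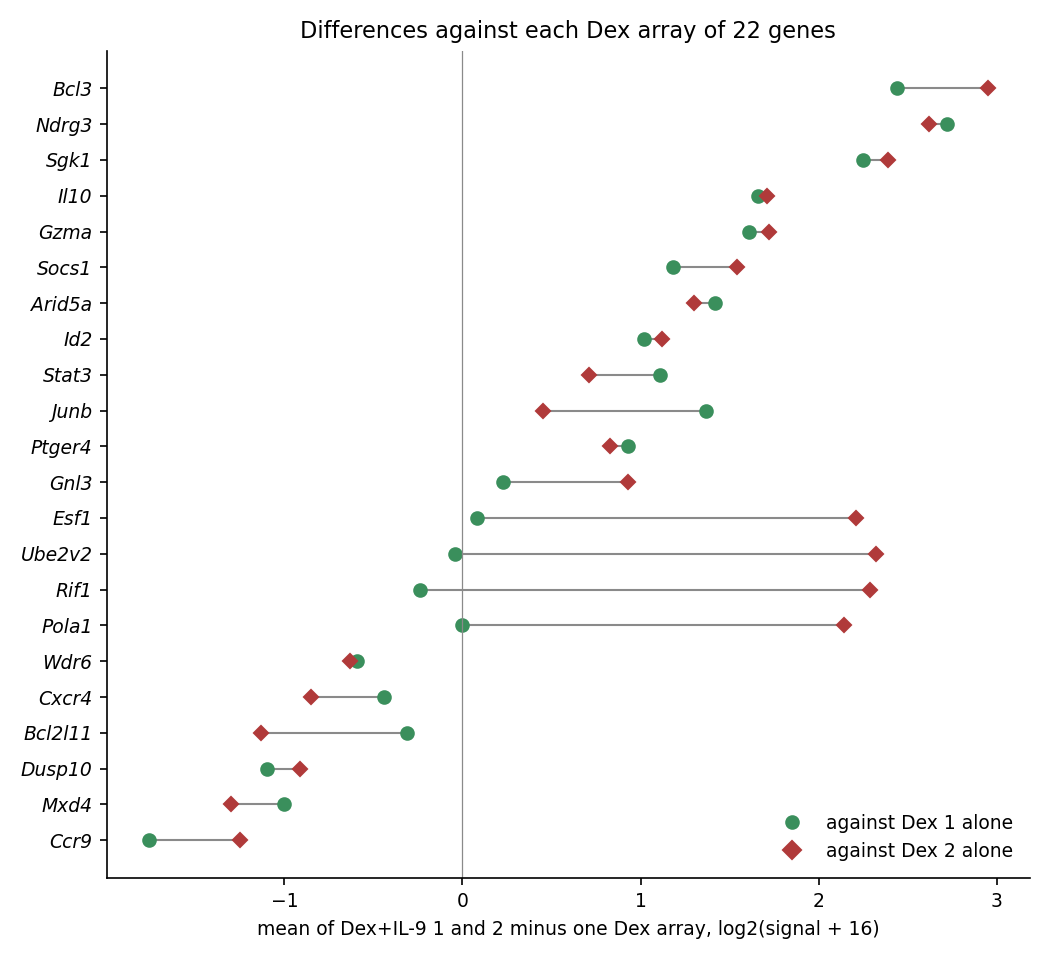
Mean of both Dex+IL-9 arrays minus 1 Dex array in log2(signal + 16) for 22 genes; circles use Dex 1 and diamonds Dex 2. The 2 marks lie close together for Sgk1, Gzma, Ndrg3 and Wdr6 and far apart for Esf1, Ube2v2, Rif1 and Pola1.

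The arrays were also compared number by number, which gives 2 differences that share no array. Across 7507 genes the number 1 and number 2 differences correlated with Pearson's r = 0.16 and Spearman's rho = 0.13, and 53.9% of genes had the same sign. Genes are not independent replicates, and these coefficients are a description. The SD of the differences was 0.28 in number 1 and 0.44 in number 2, and 26 genes were above 1 in number 1 against 258 in number 2, which holds Dex 2. Bcl3 had 2.59 and 2.81, Ndrg3 2.80 and 2.53, Sgk1 2.42 and 2.22, and Gzma 1.75 and 1.57. These lay outside the main cloud on both axes.

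**Figure D4:**
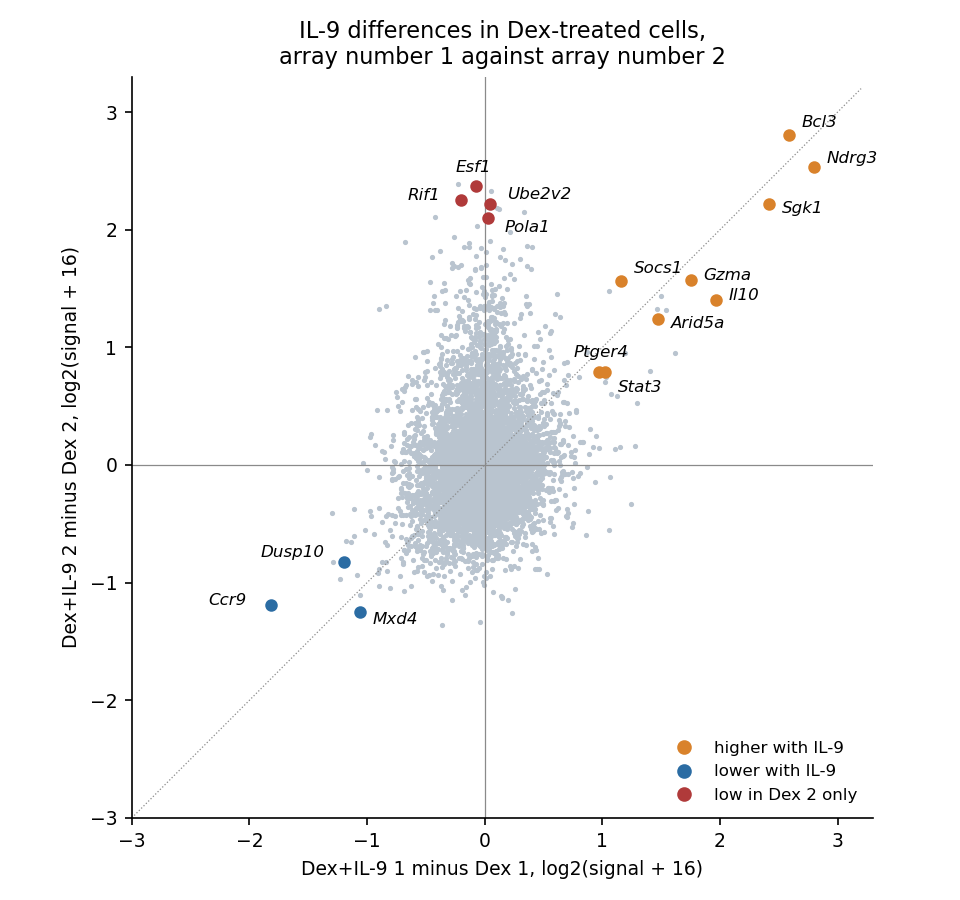
Dex+IL-9 1 minus Dex 1 (horizontal) against Dex+IL-9 2 minus Dex 2 (vertical), both in log2(signal + 16), for 7507 genes, with the dotted line marking equal values. Bcl3, Ndrg3, Sgk1 and Gzma lie near the line at the upper right, Ccr9 at the lower left, and the red genes are high on the vertical axis alone.

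Adding IL-9 to cells without Dex gives 2 further numbered differences, so that 4 pairs without a common array can be read side by side. The number 1 pair without Dex uses unstimulated 1 and IL-9 1, whose glucocorticoid receptor targets were at the level of the arrays with Dex. This way of reading was chosen after values had been seen. In 16 genes (0.213%) all 4 differences were above 0.5, and in 17 (0.226%) all were below -0.5. Above 1 in all 4 were 5 genes (0.0666%), namely Bcl3, Sgk1, Ndrg3, Gzma and Arid5a, and below -1 in all 4 was Ccr9 alone (0.0133%). The smallest of the 4 differences was 2.59 for Bcl3, 1.94 for Sgk1, 1.64 for Ndrg3 and 1.57 for Gzma. The rest of the upper set included Stk17b, a kinase of T cells, Cd53, a tetraspanin, Tha1, Fos, Zfp36, which destabilises cytokine transcripts, Junb, Stat3, Socs1 and Ptger4. Stk17b read 301 and 173 with Dex, and 642 and 513 with Dex and IL-9. Tha1 read 3.64 and 3.08 with Dex, near the floor, and 44.2 and 20.8 with Dex and IL-9. It stayed at or under 10.4 in all arrays without IL-9, and the arrays with IL-9 carried it past the filter on low signal. The lower set included Mxd4, Ccng2, an unusual cyclin of cell cycle exit (113 and 85.4 against 42.7 and 48.4), and Btg2, an antiproliferative cofactor of deadenylation (53.7 and 55.8 against 18.4 and 33). It also held Dusp10, Wdr6 (653 and 670 against 423 and 434), whose second probe set was at -0.26 against Dex 1 and -1.17 against Dex 2, Selenbp1 (77.3 and 77.2 against 41.8 and 36.7), Hdac7, Ahsg, Hsd17b11 and Tktl1. Of all 33 genes only Bcl3, Sgk1 and Gzma passed the threshold with Dex.

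**Figure D5:**
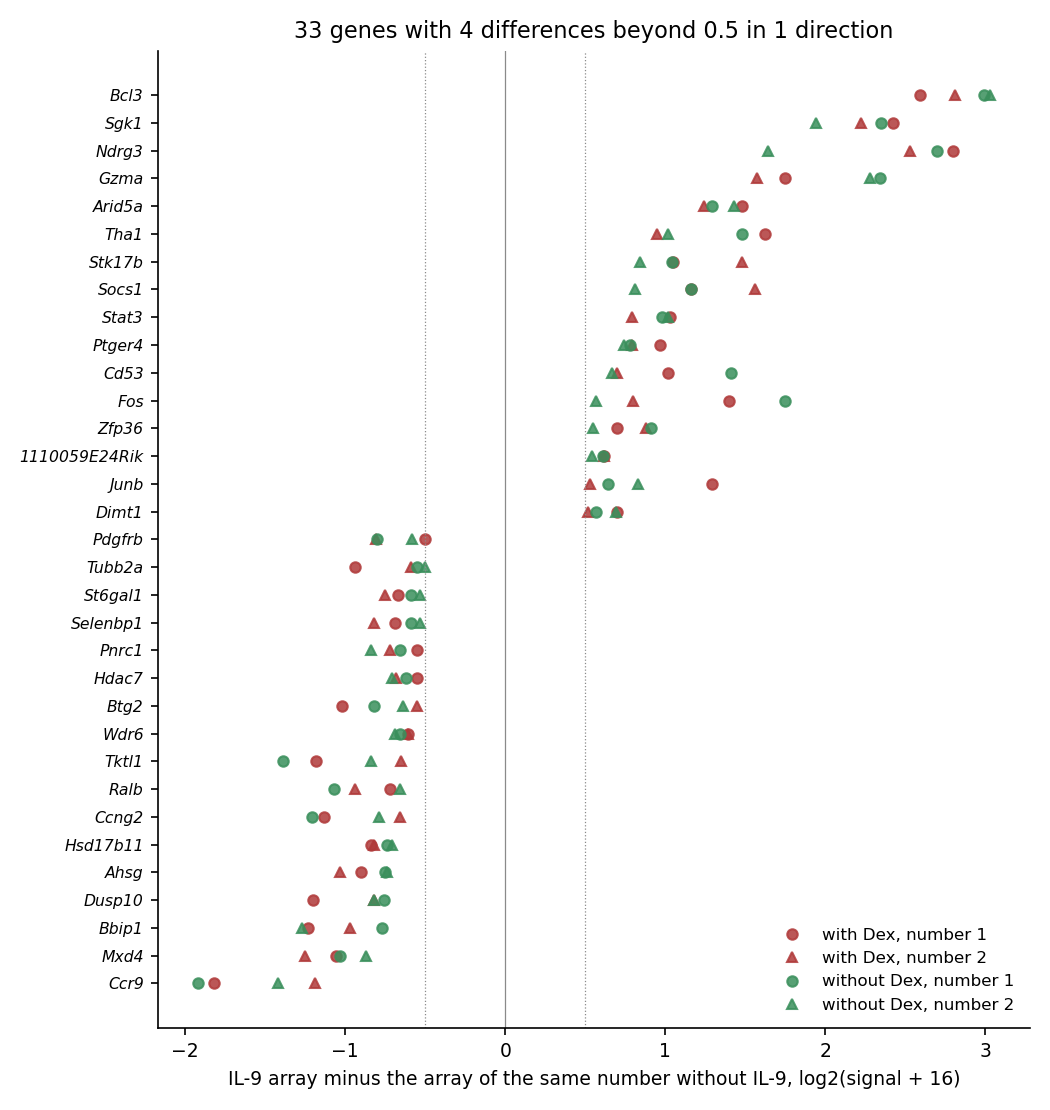
IL-9 array minus the array of the same number without IL-9, in log2(signal + 16), for the 33 genes with all 4 differences beyond 0.5 in 1 direction. Red is with Dex and green without by label, circles are number 1 and triangles number 2, and dotted lines mark 0.5. The green circles use arrays with glucocorticoid receptor targets at the level of Dex. Bcl3 is at 2.59 or more in all 4, and Ccr9 at -1.19 or lower.

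The cells given Dex and CCL1 offer a second group with Dex, and the difference from it does not use Dex 2. The Dex+IL-9 arrays are shared by both comparisons, and the spread of the Dex arrays still enters the pooled error. Here 13 probe sets or 0.0958% were called, 7 up (0.0516%) and 6 down (0.0442%). The 7 up were Bcl3 (2.37, adjusted p = 0.00113), Gzma (2.10, adjusted p = 0.00113), Ptger4 (1.48, adjusted p = 0.00156), Socs1 (2.19, adjusted p = 0.00156), Sgk1 (1.84, adjusted p = 0.00172) and 2 probe sets of Ndrg3 (2.91 and 2.86). The Dex+CCL1 arrays read 10.4 and 13.3 for Bcl3, 22.1 and 16.5 for Gzma and 67.0 and 62.6 for Sgk1, all below the arrays with IL-9. Socs1 read 15.1 and 7.11 there, lower than with Dex alone, and Ptger4 read 162 and 145 against 230 and 248 with Dex. The 6 down were 2 probe sets of Ccr9 (-1.84 and -1.60), Dusp6 (-1.88, adjusted p = 0.00113), Tuba8 (-1.88), St3gal2 (-1.23) and Ppp1r18 (-1.21). Against Dex alone the last 4 were at -0.43, -0.36, -0.61 and -0.37, none past the threshold. For these genes the arrays with CCL1 were the high ones: Dusp6 read 509 and 622 there, against 183 and 209 with Dex, and Tuba8 443 and 427, against 157 and 127 with Dex. Id2 was at -0.17 against Dex and CCL1, whose arrays read 154 and 136, and at 1.07 against Dex alone. The count was 4 to 7 without any 1 of the Dex+IL-9 or Dex+CCL1 arrays, 20 without Dex 1 and 21 without Dex 2.

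Whether IL-9 acted otherwise with Dex than without it was tested as the difference of the 2 effects. With limma 0 of 13575 probe sets passed, and 215 had an unadjusted p under 0.05, against 679 given by chance. Without the arrays labelled unstimulated 1 and IL-9 1, again 0 passed and 245 had an unadjusted p under 0.05. Without Dex 1 the count was 271, all of them higher with Dex, which leaves Dex 2 as the only Dex array. For Bcl3 the 2 effects differed by -0.31 (SE 0.31), for Sgk1 by 0.17 (SE 0.27), for Gzma by -0.65 (SE 0.28) and for Ndrg3 by 0.50 (SE 0.53). Without the arrays labelled unstimulated 1 and IL-9 1 the values were -0.33, 0.38, -0.61 and 1.03 in the same order. The second probe set of Ndrg3 was at 0.81 with these arrays and at 1.57 without them. None of these was past the threshold, which does not show the effects to be equal. The signals with IL-9 alone were 159 and 158 for Bcl3, 234 and 226 for Sgk1, and 170 and 192 for Gzma. The smallest p-values belonged to Tspan9 (1.11, SE 0.28), Pcm1 (1.30, SE 0.34) and, in the other direction, 1810058I24Rik (-1.02, SE 0.27). Of the 10 smallest, 6 were of a higher IL-9 effect with Dex and 4 of a lower one. Tspan9 stayed at or under 17.6 in these 8 arrays. The centriolar satellite protein Pcm1 read 55.7 in Dex 1, 26.8 in Dex 2, and 48.9 and 63.3 with IL-9.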

How the data were processed

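The study profiled BW5147 RNA with 12 Affymetrix arrays, 2 for each of its 6 treatments. The authors deposited linear MAS5 signal intensities, per the submitters' processing notes. These stand in 2 tables, of 11 arrays and of 1 (CCL1 2, which is of another array type). The sources used here name no further step. The trimmed mean signal was 100 in 10 arrays of the larger table and 100.1 in Dex+CCL1 2. Such scaling hides a change of all genes in 1 direction.

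The deposited intensities were turned into log2(signal + 16). Control probe sets (64) were removed, and 13575 of 22626 probe sets above the 40th percentile of mean log2 value (a signal of 6.32) were kept. Genes were named from probe sets with 1 symbol in the platform annotation (20380, against 691 with several and 1555 with none). Each of 7507 genes is represented by its brightest probe set. Il2rg was not matched. A linear model was fitted with limma 3.58.1 (R 4.3.3) to 11 arrays, with a mean for each group, moderated variances that follow intensity, and Benjamini-Hochberg adjustment at 0.05, leaving 5 residual and 6.47 prior degrees of freedom. All groups share the spread, since pairs of arrays give a poor estimate alone, and a lone array is assumed to vary like the other groups. The fit was tested on simulated data with 100 probe sets changed by 1 log2 and 100 by 2 log2. Of these 56% and 93% were recovered, and 4.49% of the calls were false. Changes of 1 log2 were thus often missed there. Replicate arrays shared 0 equal signals, and their median absolute difference was 0.162 to 0.254 log2. The number of arrays limits the precision.

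Named were genes past the threshold, the 10 widest gaps in each direction, the markers, list members past the threshold with up to 6 others of smallest p or needed for a family, and the smallest p-values of the difference of effects and of the fits without Dex 1 or Dex 2. Other genes of the 4-pair reading and of the Dex+CCL1 comparison were named after their values were seen. Members and lists were chosen with earlier results of these data known. A further list is not reported here. Promoter sequences are from RefSeq (GRCm38.p6).

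The alternatives changed the pseudocount (1 or 64), the filter (none, or the 60th percentile), the scaling (quantile or median), the trend, the array weights, the block of replicate numbers, the arrays fitted (the 6 with Dex, CCL1 2 added, each left out) and the probe sets (1 per gene).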

Additional observations from a re-analysis of the deposited data

How the results depend on the processing

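The count for IL-9 with Dex, 3 as reported, was 5 with a pseudocount of 64, with median centring and with the array CCL1 2 added, and 2 to 669 with 1 array left out. The 669 came without Dex 1, and the count was 5 without IL-9 1 or IL-9 2 and 2 or 3 without any other 1 array. Against Dex and CCL1 the count was 13, 21 with array weights and 4 to 21 with 1 array left out. For the difference of the effects it was 0, and 0 to 271 with 1 array left out, again without Dex 1. The cause of these shifts was not tested. The replicate block gave 6 calls for IL-9 with Dex, with Ndrg3 (adjusted p = 0.0106) and Stk17b among them. The numbers are not taken to pair the arrays, because the correlations of same-numbered deviations ran from 0.01 to 0.29. Bcl3 passed in all 11 settings in which it was tested and without any 1 array, and Sgk1 in all 12 and without any 1 array. Gzma passed in 11 of 12 settings and in 8 of 11 omissions, Ndrg3 in 6 of 12 and in 3 of 11, and Socs1 in 1 of 12 and in 1 of 11. The lowest value with 1 array left out was without Dex 2, and the highest without Dex 1, for Ube2v2 (-0.04 and 2.32), Rif1 (-0.24 and 2.29), Pola1 (0.00 and 2.14), Nr3c1 (-0.43 and 0.87), Mki67 (-0.23 and 1.91) and Xiap (-0.05 and 1.34). Without Dex 2 the sign turned for these genes other than Pola1. Within the arrays numbered 1 it turned for Esf1 (-0.07), Rif1 (-0.20), Nr3c1 (-0.52), Pcm1 (-0.14), Mki67 (-0.26) and Xiap (-0.04). Low signals limit genes such as Bcl3 with Dex alone, whose fold is set by a value near the floor.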
